A study of Mus musculus with 2 samples.

Results

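Genes of 10 scavenger receptors and resident macrophage proteins were followed in single-cell RNA-seq of GR1+ cells sorted from 4T1 tumors, out of 32285 genes listed in the count tables. They were Mrc1, Cd163, Lyve1, Folr2, Vsig4, Cbr2, Retnla, Msr1, Stab1 and Timd4. The set was chosen by their measured levels in these same libraries, with earlier results known, so the levels and differences between the conditions are given as a description, with no test. 4T1 is a mouse mammary carcinoma cell line. Tumors of its parental line, which do not respond to anti-PD1 (4T1P), were compared with tumors of a mutagenized clone that does (4T1M), both grown in BALB/c mice 6 to 8 weeks old and both sampled without checkpoint therapy. GR1 is an epitope of Ly6G and Ly6C, and cells bearing it were collected from tumor suspensions on magnetic beads. The samples are described as 5 mice pooled per condition (the study's legend gives another number), and 1 droplet library was made of each pool, from tumors of 1 line in the one case and 1 clone in the other. The spread between mice therefore cannot be estimated. The intervals below are at 95%, cover counting error only, and are exact (Poisson for levels, Clopper-Pearson for shares, conditional binomial for ratios).

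Scavenger receptors take up modified lipoproteins, sugars, hormone complexes and cell debris, and macrophages use them to clear tissue without raising inflammation. Several of them, together with the folate receptor Folr2, the hyaluronan receptor Lyve1 and the phosphatidylserine receptor Timd4, mark macrophages that are resident in a tissue, where they lie along vessels or line body cavities, in contrast to cells newly derived from blood monocytes. In tumors, macrophages with Mrc1 (CD206) and Cd163 on their surface are commonly set apart from inflammatory macrophages. The question put to these data was whether lower levels in 4T1M came with fewer cells that carry several resident genes, or with a lower level across all macrophages.

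Barcodes were kept where 500 to 5000 genes were detected and no more than 10% of UMIs (unique molecular identifiers, the counted transcripts) were mitochondrial, which left 5187 cells, 1726 of 4T1P and 3461 of 4T1M. Cells with at least 1.5% of their UMIs in S100a8 and S100a9 were called neutrophils (623 in 4T1P and 1739 in 4T1M). Of the rest, cells with at least 0.3% in C1qa, C1qb, C1qc, Apoe, Csf1r, Cd68 and Fn1 were called macrophages. These numbered 798 in 4T1P, 46.2% of retained cells (43.9% to 48.6%), and 976 in 4T1M, or 28.2% (26.7% to 29.7%). Macrophages held 8767210 UMIs in 4T1P and 9343315 in 4T1M, with medians of 9727 and 9214 UMIs per cell, and neutrophils had medians of 3075 and 2972. All 14 genes of a wider macrophage list were detected in the macrophages of both libraries, and Adgre1 (F4/80), which the rule did not use, stood at 107 CPM (the gene's UMIs scaled by the total UMIs of the class) in 4T1P and 102 in 4T1M. The sorted antigen's own genes were low in these cells: Ly6g was at 0.342 and 1.28 CPM, and Ly6c2 at 3.76 and 28.0 CPM, so the macrophages carried little RNA of what the beads select. Neutrophil RNA was higher in the macrophages of 4T1M, where 10 neutrophil genes summed to 375 CPM against 244 in 4T1P, with all 10 detected in both, and T and NK cell genes summed to 5.46 and 3.88 CPM. The libraries shared 5 barcodes.

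Cells close to the limit on macrophage genes held less of the members than those far inside it. Macrophages with 0.3% to 0.6% of UMIs in the rule's genes (78 cells in 4T1P and 152 in 4T1M) had 955 and 894 CPM of the 10 members together. Those at 0.6% or more had 2071 and 1228 CPM, and cells just outside, at 0.15% to 0.3%, had 543 and 615 CPM. At the other limit, the few macrophages with 1% to 1.5% of UMIs in S100a8 and S100a9 (5 cells in 4T1P and 26 in 4T1M) had 2823 and 1749 CPM of the members, and cells just outside, at 1.5% to 2% (5 and 18 cells), had 1468 and 744 CPM.

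The genes are protein coding and lie, in GRCm38, on chromosomes 2 (Mrc1), 6 (Cd163), 7 (Lyve1 and Folr2), 8 (Msr1), 11 (Cbr2 and Timd4), 14 (Stab1), 16 (Retnla) and X (Vsig4). The members thus share no cluster in the genome, and the pairs on chromosomes 7 and 11 share only the chromosome. Folr2 and Lyve1 lie from bases 101839988 and 110850607 of chromosome 7, and Timd4 and Cbr2 from bases 46810800 and 120729489 of chromosome 11. Promoter sequences of RefSeq (build GRCm38.p6, 250 bases before to 50 after the start) matched 8 of the 10 by symbol. They are shown for Mrc1, Folr2 and Cbr2, which were lower together in 4T1M, and for Retnla, which was higher. Capitals mark GAGGAA, the core letters bound by the myeloid factor PU.1, and TGCTGA, a half-site of MAF factors, each searched on both strands (as TTCCTC and TCAGCA on the other), with no overlaps between the motifs in these windows.
Mrc1 (chr2:14229164-14229463, plus strand): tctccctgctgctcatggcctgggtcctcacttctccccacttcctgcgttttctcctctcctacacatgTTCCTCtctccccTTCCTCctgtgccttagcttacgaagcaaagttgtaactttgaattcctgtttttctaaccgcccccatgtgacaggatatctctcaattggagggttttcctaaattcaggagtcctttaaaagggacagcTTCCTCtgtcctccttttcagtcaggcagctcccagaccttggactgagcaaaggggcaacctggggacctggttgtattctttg
Folr2 (chr7:101857141-101857440, minus strand): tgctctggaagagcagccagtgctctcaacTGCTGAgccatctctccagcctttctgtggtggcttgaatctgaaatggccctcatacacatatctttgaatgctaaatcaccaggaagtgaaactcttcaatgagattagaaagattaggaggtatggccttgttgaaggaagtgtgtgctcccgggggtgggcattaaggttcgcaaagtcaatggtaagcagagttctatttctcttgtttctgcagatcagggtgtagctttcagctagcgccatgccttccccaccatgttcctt
Cbr2 (chr11:120731972-120732271, minus strand): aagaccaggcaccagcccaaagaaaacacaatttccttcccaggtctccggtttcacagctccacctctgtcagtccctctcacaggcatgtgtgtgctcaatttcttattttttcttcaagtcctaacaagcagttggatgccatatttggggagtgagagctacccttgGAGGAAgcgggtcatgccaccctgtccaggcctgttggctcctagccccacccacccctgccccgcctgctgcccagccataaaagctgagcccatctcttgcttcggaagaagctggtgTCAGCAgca
Retnla (chr16:48842359-48842658, plus strand): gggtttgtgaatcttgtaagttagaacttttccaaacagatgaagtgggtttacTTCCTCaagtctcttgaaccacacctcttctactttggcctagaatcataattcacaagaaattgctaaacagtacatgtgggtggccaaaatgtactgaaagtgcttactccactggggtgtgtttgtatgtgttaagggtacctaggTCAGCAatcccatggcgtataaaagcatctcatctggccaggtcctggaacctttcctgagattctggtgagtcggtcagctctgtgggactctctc
The PU.1 core was in 5 of the 8 members' promoters, against 28.3% of all 32851 promoters of this length, and the MAF half-site in 6 of 8, against 19.5%. Mrc1 held the PU.1 core 3 times and no MAF half-site, Folr2 the reverse with 1 half-site, and Cbr2 and Retnla each held both. Cd163, also lower in 4T1M but not shown, was the only matched member with neither. These are matches of letters, given as a description.

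In macrophages, 8 of the 10 members were lower in 4T1M than in 4T1P, and 6 of them at least 2-fold lower. Over all 12352 genes with at least 10 UMIs, 6804 were lower, 3.15% were at least 2-fold lower and the median log2 ratio was -0.03. Because the members were picked with this contrast in view, their share against that background says nothing further. Retnla, a secreted protein of alternative activation and no receptor, was the only member at least 2-fold higher, where 3.06% of all genes were.

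**Figure D1:**
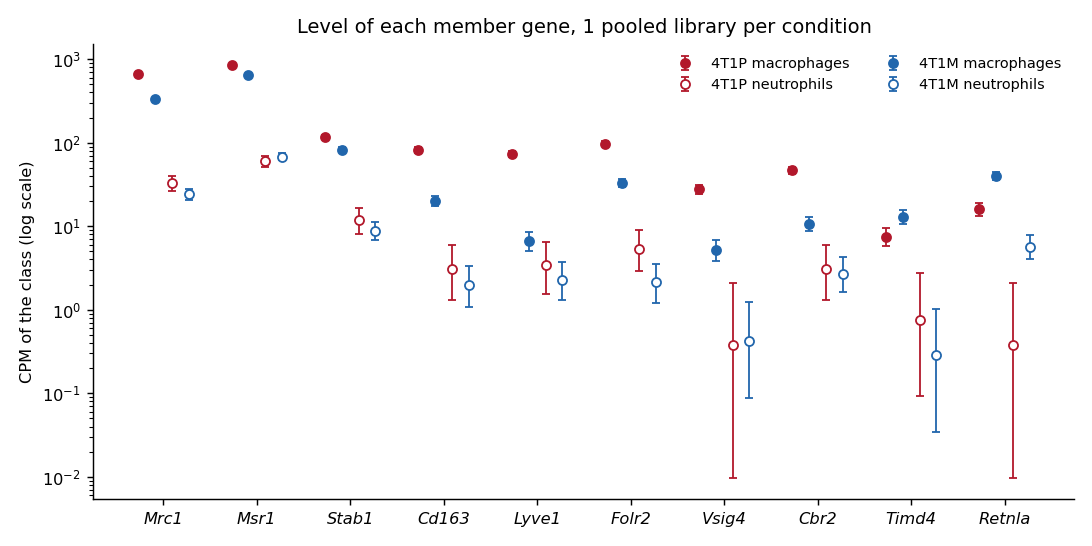
Level of each member in macrophages (filled points) and neutrophils (open points) of 4T1P (red) and 4T1M (blue), as CPM of the class on a log scale, with exact Poisson intervals. In macrophages 8 members sat lower in 4T1M, Retnla and Timd4 sat higher, and neutrophils of both libraries lay below their macrophages for each member.

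Mrc1, the mannose receptor that takes up glycoproteins, stood at 669 CPM in 4T1P (652 to 687, 5867 UMIs) and at 334 CPM in 4T1M (322 to 346, 3121 UMIs). The log2 ratio of 4T1M over 4T1P was -1.0 (-1.07 to -0.94), which lies on the 2-fold limit, so that settings that shift it slightly move it across. At least 1 Mrc1 UMI was found in 535 of the 798 macrophages of 4T1P and in 518 of the 976 of 4T1M, and the cell with the most held 119 and 55 UMIs. The difference thus did not rest on a few cells.

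Msr1, the class A receptor for modified lipoproteins, was at 841 CPM (822 to 860) in 4T1P and 640 CPM (624 to 657) in 4T1M, which gave a log2 ratio of -0.39 (-0.44 to -0.34). Stab1, an endocytic receptor that clears ligands such as SPARC, was at 118 CPM in 4T1P (111 to 125) and 82.2 CPM in 4T1M (76.5 to 88.2), with a log2 ratio of -0.52 (-0.65 to -0.38). Both of these receptors differed between the libraries by less than 2-fold.

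Cd163, the receptor for haptoglobin bound to hemoglobin, was at 82.0 CPM (76.1 to 88.2) in 4T1P and 20.1 CPM (17.3 to 23.2) in 4T1M, 4.08-fold lower. Lyve1, which binds hyaluronan, was at 72.9 CPM (67.3 to 78.8) and 6.64 CPM (5.09 to 8.51), 11-fold lower. Folr2, the folate receptor beta, was at 97.2 CPM (90.8 to 104) and 33.3 CPM (29.7 to 37.2), 2.92-fold lower. These are genes of resident macrophages, and their differences exceeded those of Mrc1, Msr1 and Stab1. Vsig4, a complement receptor, was at 27.6 CPM (24.2 to 31.3) and 5.24 CPM (3.88 to 6.93), 5.26-fold lower. Cbr2, a carbonyl reductase found in resident macrophages rather than a receptor, was at 46.5 CPM (42.1 to 51.3) and 10.7 CPM (8.71 to 13), 4.35-fold lower.

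Timd4, which binds phosphatidylserine on dying cells, went the other way from the genes it is usually found with. It was at 7.53 CPM in 4T1P (5.82 to 9.58, 66 UMIs) and at 12.9 CPM in 4T1M (10.7 to 15.5, 121 UMIs), a log2 ratio of 0.78 (0.34 to 1.24). Retnla was at 16 CPM in 4T1P (13.4 to 18.8, 140 UMIs) and 40.0 CPM in 4T1M (36.1 to 44.3, 374 UMIs), with a log2 ratio of 1.33 (1.04 to 1.62). Of the 374 Retnla UMIs in 4T1M, 197 came from 1 macrophage, and without that cell the level was 18.9 CPM. Leaving out the highest cell of each library brought the log2 ratio to 0.69, so the 2-fold difference of Retnla was decided by 1 cell.

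The UMIs of the rarer members were held by few macrophages. The 10 cells with the most held 97.5% of the Vsig4 UMIs in 4T1P and 100% in 4T1M, 62.6% and 87.1% of those of Lyve1, and 51.5% and 77.7% of those of Cd163. For Folr2 the figures were 17.3% and 37.6%, and for Msr1 they were 7.69% and 6.35%. The intervals on UMIs do not cover this spread over cells, and for Vsig4, found in 14 and 10 macrophages, the ratio rested on a handful of cells.

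To compare shares of cells free of depth, each cell with at least 2000 UMIs was thinned at random to 2000 (633 macrophages of 4T1P and 760 of 4T1M, with 165 and 216 shallower ones left out). Mrc1 was found in 53.7% of the 4T1P macrophages (49.7% to 57.7%) and in 36.2% of those of 4T1M (32.8% to 39.7%). Neutrophils at the same depth (524 and 1396 cells) had Mrc1 in 2.1% and 2.15%. Msr1 was found in 69.7% (65.9% to 73.2%) and 62.6% (59.1% to 66.1%), against 5.73% and 6.45% of neutrophils, and Stab1 in 16.9% (14.1% to 20.1%) and 12.9% (10.6% to 15.5%). The intervals of Mrc1 did not overlap, those of Msr1 overlapped narrowly and those of Stab1 more widely. Without thinning, Mrc1 was in 67.0% and 53.1% of macrophages.

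The resident genes were found in far fewer cells than Mrc1 and Msr1, though in 4T1P the interval of Folr2 overlapped that of Stab1. Cd163 was in 7.74% of 4T1P macrophages (5.78% to 10.1%) and 2.37% of those of 4T1M (1.41% to 3.72%), Cbr2 in 8.06% (6.06% to 10.5%) and 1.84% (1.01% to 3.07%), and Folr2 in 13.1% (10.6% to 16%) and 4.21% (2.90% to 5.89%). Lyve1 was in 5.21% (3.62% to 7.24%) and 1.05% (0.456% to 2.06%), beside 0.763% (0.208% to 1.94%) and 0.143% (0.0174% to 0.517%) of the neutrophils of the same libraries, so the 4T1M interval overlapped that of its own neutrophils. Vsig4 (1.11% and 0.526%), Retnla (0.948% and 1.58%) and Timd4 (1.58% and 2.37%) had overlapping intervals between the libraries, and for these the shares could not be told apart at this depth. No neutrophil of the 524 or of the 1396 held a Timd4 UMI, which allows shares of up to 0.573% and 0.215% (3 counts of the cells, the limit given for each share of 0).

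**Figure D2:**
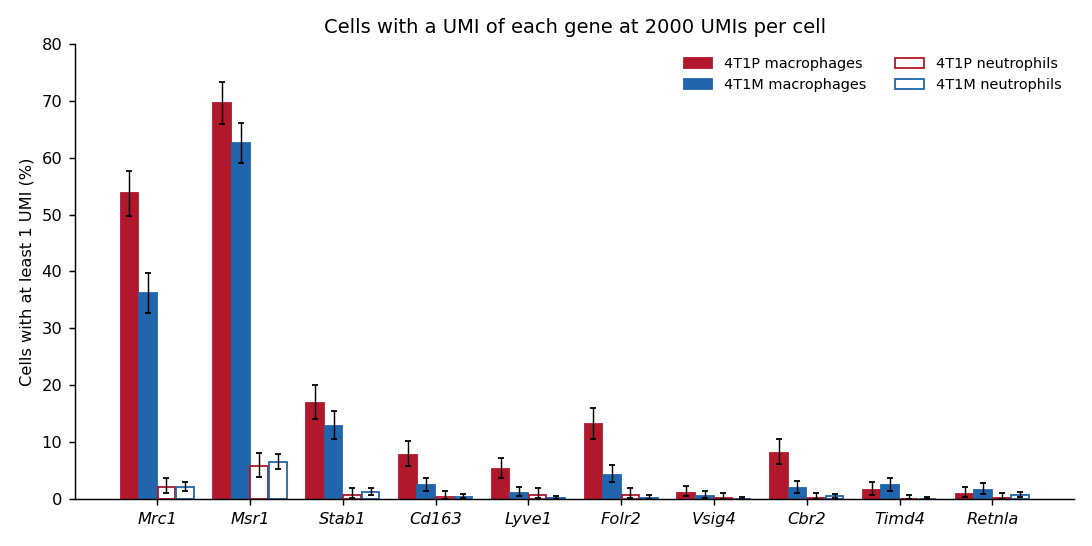
Share of cells with at least 1 UMI of each member at 2000 UMIs per cell, in macrophages (filled bars) and neutrophils (open bars) of 4T1P (red) and 4T1M (blue), with exact Clopper-Pearson intervals. Mrc1 reached 53.7% and 36.2% of macrophages and about 2% of neutrophils, and the resident genes at most 13.1%.

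Levels in neutrophils were low, as a background measured in the same droplet runs. Mrc1 was at 32.7 CPM in 4T1P neutrophils and 24.3 CPM in those of 4T1M, 4.88% and 7.26% of the macrophage level, beside 8.24% and 6.83% for C1qa, a gene of the macrophage rule. Over the members this percentage ran from 1.38% to 10.1% in 4T1P and from 2.20% to 34.4% in 4T1M, the highest being Lyve1 (16 UMIs in 4T1M neutrophils and 62 in its macrophages). Subtracting the neutrophil level left the direction of all 10 members in place.

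A higher count per cell accompanied the higher share of Mrc1. In cells with a UMI the mean was 2.35 UMIs per 2000 in 4T1P and 1.81 in 4T1M. Cells with 3 or more were 17.5% (14.7% to 20.7%) and 6.32% (4.69% to 8.29%), and cells with 5 or more were 5.69% (4.01% to 7.79%) and 1.71% (0.914% to 2.91%). Among cells rich in Mrc1 the ratio between the libraries was thus larger, and the difference in percentage points smaller, than for any UMI. Whether the difference lay mainly in such cells was not tested. Cells with exactly 2 were 10.6% and 9.61%, with overlapping intervals.

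Resident genes occurred together in the same cells. Among the 4T1P macrophages with Cd163, 51.0% also held Cbr2 and 42.9% Lyve1, against 4.45% and 2.05% of those without Cd163, and in 4T1M 44.4% held Cbr2 and 33.3% Lyve1, against 0.809% and 0.27%. Mrc1 was found in 91.8% of the Cd163 cells of 4T1P and 88.9% of those of 4T1M. Msr1 did not share this pattern, being found in 59.2% of Cd163 cells and 70.5% of the others in 4T1P.

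A macrophage was then called a resident-marker cell where UMIs of at least 2 of the 6 genes Cd163, Lyve1, Folr2, Vsig4, Cbr2 and Timd4 were found at 2000 UMIs. There were 52 among the 633 macrophages of 4T1P, 8.21% (6.20% to 10.6%), and 16 among the 760 of 4T1M, 2.11% (1.21% to 3.40%), a ratio of 3.9. Of the neutrophils, 0 of 524 in 4T1P (up to 0.573% by that limit) and 2 of 1396 in 4T1M (0.143%) met the same rule. Cells with at least 3 of the 6 were 4.58% and 1.18%. At full depth 127 of 798 macrophages (15.9%) and 53 of 976 (5.43%) held at least 2, while 488 (61.2%) and 798 (81.8%) held none. These cells are defined by the genes under study, so their number restates the levels given above, cell by cell.

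**Figure D3:**
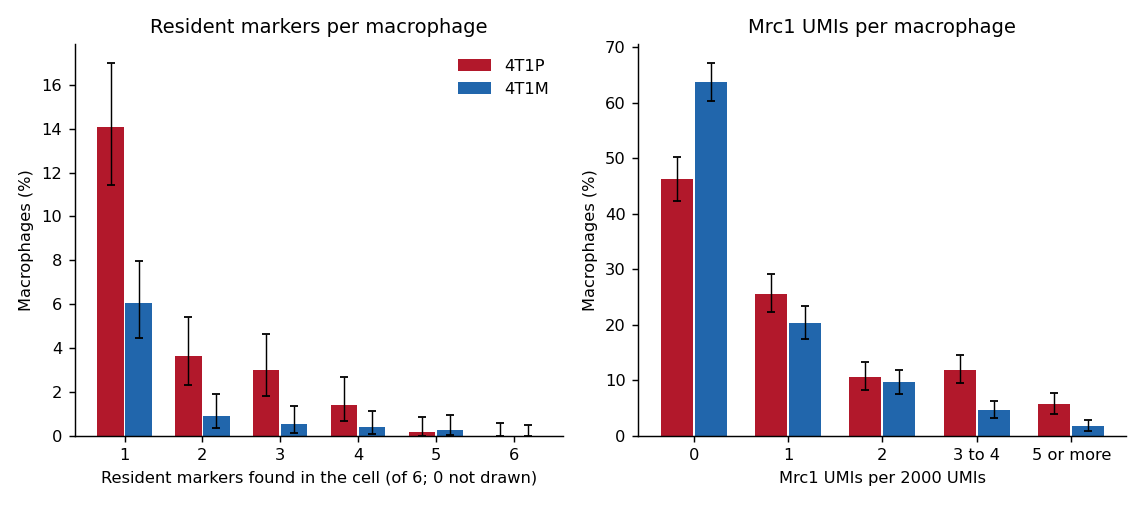
Left, share of macrophages in which 1 to 6 of the resident markers were found at 2000 UMIs per cell; right, share of macrophages by their number of Mrc1 UMIs, for 4T1P (red) and 4T1M (blue) with exact Clopper-Pearson intervals. The 4T1P bars are higher from 1 to 4 markers and from 1 Mrc1 UMI on, while 4T1M has more cells without Mrc1.

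The share of resident-marker cells moved with the mitochondrial content of the cells. Among macrophages with up to 5% mitochondrial UMIs it was 4.01% in 4T1P (13 of 324, 2.15% to 6.76%) and 2.46% in 4T1M (11 of 447, 1.23% to 4.36%), with overlapping intervals. Among those with 5% to 10% it was 12.6% (39 of 309, 9.13% to 16.8%) and 1.60% (5 of 313, 0.521% to 3.69%). The gap between the libraries thus lay mainly in cells with more mitochondrial RNA, whose median depth was also higher (14951 and 12461 UMIs, against 4673 and 6304 below 5%). In the macrophages excluded for 10% to 20% mitochondrial UMIs, 15 of 82 in 4T1P (18.3%, 10.6% to 28.4%) and 0 of 55 in 4T1M (up to 5.45% by the same limit) were resident-marker cells. Resident-marker cells had a median of 6.04% mitochondrial UMIs in 4T1P against 4.79% in other macrophages, and 4.59% against 4.48% in 4T1M.

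The levels of most of the resident genes followed the same division. With up to 5% mitochondrial UMIs, the log2 ratio was -0.61 for Cd163 (-0.99 to -0.23), -0.97 for Cbr2 (-1.5 to -0.45), -0.84 for Vsig4 (-1.5 to -0.19) and -1.61 for Lyve1 (-2.15 to -1.09). With 5% to 10% it was -2.72 for Cd163 (-3.08 to -2.38), -2.60 for Cbr2 (-3.07 to -2.16), -3.71 for Vsig4 (-4.64 to -2.90) and -4.72 for Lyve1 (-5.48 to -4.04). Each of these resident genes was lower in 4T1M in both strata, by far more in the upper one. Mrc1 was at -0.81 (-0.92 to -0.71) and -0.98 (-1.06 to -0.90) and Folr2 at -1.22 and -1.62, and these depended less on the stratum. Retnla went the other way, with log2 ratios of 1.67 (1.30 to 2.05) up to 5%, the only stratum within the filter in which it was 2-fold higher, and 0.15 (-0.37 to 0.68) from 5% to 10%. Of its 311 UMIs in 4T1M up to 5%, 197 came from the 1 macrophage named above. The Retnla ratio there, and its contrast between the strata, thus rested largely on 1 cell. In the excluded macrophages with 10% to 20% mitochondrial UMIs, Retnla was lower in 4T1M, at 57.8 CPM in 4T1P (42 UMIs) and 2.04 CPM in 4T1M (1 UMI). In the lower stratum only Lyve1 and Folr2 were at least 2-fold lower, 2 members in place of 6. The part of cell quality in the result was not tested beyond these values.

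**Figure D4:**
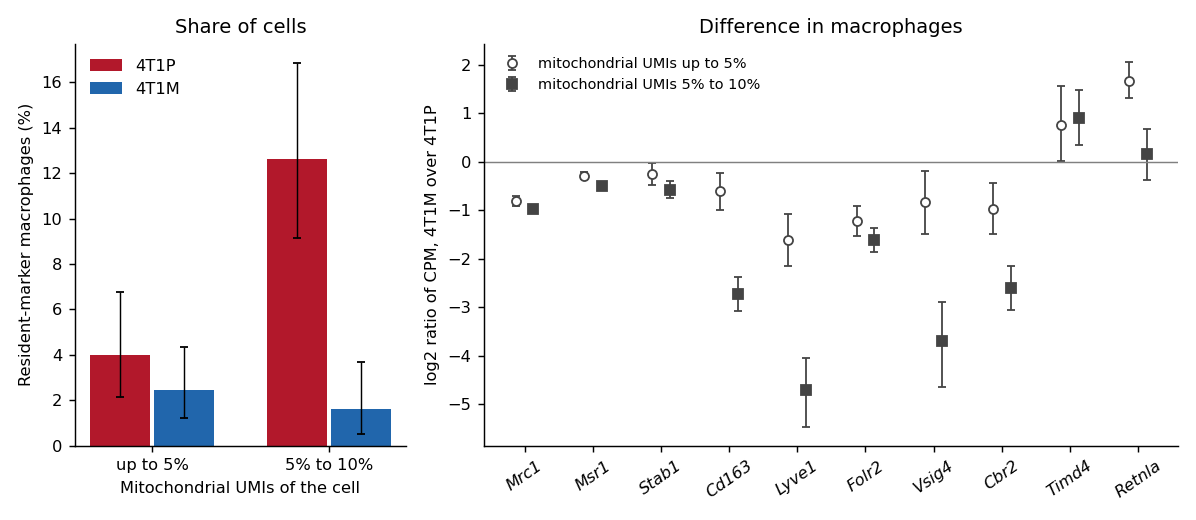
Left, share of resident-marker cells among macrophages by mitochondrial content of the cell, for 4T1P (red) and 4T1M (blue), with exact Clopper-Pearson intervals; right, log2 ratio of CPM of 4T1M over 4T1P for each member in both strata, with exact conditional intervals. Of the 4 bars, that of 4T1P cells with 5% to 10% mitochondrial UMIs reaches 12.6% and the others at most 4.01%, and Cd163, Lyve1, Vsig4 and Cbr2 differ more in that stratum.

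Mrc1 was not used to define the resident-marker cells, so its level can be read inside and outside them. Inside, the mean was 4.25 UMIs per 2000 in 4T1P (3.71 to 4.85, 52 cells) and 3.88 in 4T1M (2.97 to 4.97, 16 cells), a log2 ratio of -0.13 (-0.56 to 0.28). Outside, it was 0.993 (0.914 to 1.08) and 0.585 (0.531 to 0.642), a log2 ratio of -0.76 (-0.95 to -0.58). The level outside was thus lower in 4T1M beyond counting error, and the level inside could not be told apart. The mean over all these macrophages differed by -0.607 UMIs per 2000 (1.26 in 4T1P and 0.654 in 4T1M). By arithmetic, 33.0% of that difference came with the share of resident-marker cells, 3.19% with the level inside them and 63.8% with the level outside. The first of these was 19.2% where at least 3 markers were required and 16.7% at 1000 UMIs per cell. Its value under the other marker rules is not reported here. At full depth more macrophages held at least 2 markers, 127 in 4T1P and 53 in 4T1M. Cells outside at 2000 UMIs can thus include some that carry these markers, and the split depends on depth. In 4T1P 27.7% of the Mrc1 UMIs lay in resident-marker cells, and in 4T1M 12.5%.

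The lower Mrc1 outside resident-marker cells was seen in both mitochondrial strata, with log2 ratios of -0.84 (-1.13 to -0.56) up to 5% and -0.64 (-0.88 to -0.39) from 5% to 10%. At full depth, macrophages with none of the 6 genes had 349 CPM of Mrc1 in 4T1P and 256 CPM in 4T1M, a smaller log2 ratio of -0.44 (-0.54 to -0.35). Where macrophages were instead divided by UMIs of at least 3 of 22 other genes of resident macrophages, 61.6% of 4T1P and 40.1% of 4T1M cells were on the resident side, and Mrc1 outside differed by -0.38 on the log2 scale. With at least 1 or at least 3 of the 6 markers in place of 2, Mrc1 outside differed by -0.72 and -0.83, and at 1000 UMIs per cell by -1.06. The difference outside was below 0 in each of these divisions.

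The mean of Msr1 outside was 1.63 (1.53 to 1.74) in 4T1P and 1.19 (1.12 to 1.27) in 4T1M, and inside it was 1.58 and 1.25. Its log2 ratio was -0.45 (-0.59 to -0.32) outside and -0.34 (-1.12 to 0.38) inside. By the same arithmetic, 96.1% of the difference came with the level outside. Most macrophages lay outside, so this percentage does not show that the level inside was unchanged. The intervals of the Msr1 level inside and outside overlapped in both libraries. Stab1 was higher inside (0.731 and 0.750 UMIs per 2000) than outside (0.181 and 0.147), and its difference of -0.067 came by 52.8% with the share of cells and by 48.7% with the level outside, where the log2 ratio was -0.30 (-0.70 to 0.10). At full depth, macrophages with none of the 6 had 62.0 CPM of Stab1 in 4T1P and 68.4 CPM in 4T1M, a log2 ratio of 0.14 (-0.08 to 0.36). For Stab1, no difference outside the resident-marker cells was detectable at this depth.

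For each of the 6 resident genes, the cells were divided by the other 5. Cd163 was at 2.48 UMIs per 2000 in 4T1P (2.01 to 3.01) and 2.55 in 4T1M (1.69 to 3.68) in cells with 2 or more of the others, and at 0.079 and 0.021 elsewhere, so that 69.4% of its difference came with the share of such cells. Folr2 was higher inside in 4T1M, 1.5 (0.889 to 2.37) against 0.683 (0.454 to 0.987), and lower outside, 0.037 against 0.140. Lyve1 was lower in both places, 1.89 (1.5 to 2.34) against 0.625 (0.30 to 1.15) inside and 0.048 against 0.0054 outside. Cbr2 was at 1.26 and 0.643 inside, with overlapping intervals, and at 0.062 and 0.011 outside. By UMIs, these genes thus did not all differ in the same direction inside such cells. Each gene was read in its own set of cells, only 11 to 16 in 4T1M, and the intervals do not cover the spread over cells. Lyve1 was found in 50% of its 44 cells of 4T1P and in 37.5% of its 16 of 4T1M. Whether the mixture of these genes differed between the libraries was not tested.

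**Figure D5:**
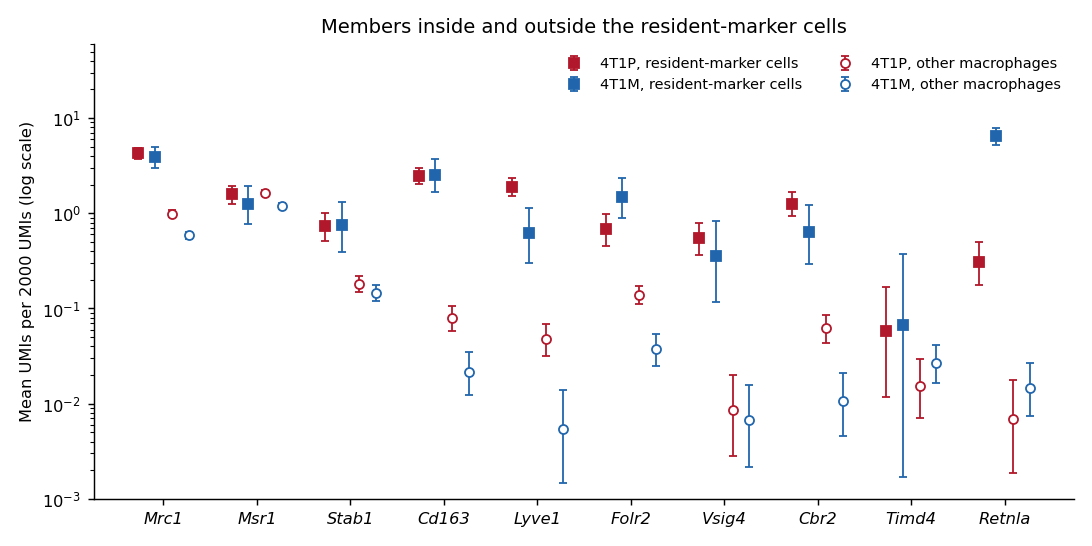
Mean UMIs of each member per 2000 UMIs in resident-marker cells (filled squares) and in other macrophages (open circles) of 4T1P (red) and 4T1M (blue), log scale, with exact Poisson intervals; for the 6 genes that define the cells, the other 5 define them. Mrc1 lies at 4.25 and 3.88 inside and at 0.993 and 0.585 outside, and Retnla at 6.44 inside only in 4T1M.

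At full depth, macrophages with Retnla or with Timd4 held other resident genes in a higher share than those without. The 2 genes differed in where most of their UMIs lay. Of the 20 macrophages with Retnla in 4T1M, 14 (70.0%) held at least 2 of the 6 resident genes at full depth, against 4.08% of the macrophages without it, and in 4T1P 8 of 16 (50%) against 15.2%. At 2000 UMIs its mean inside the resident-marker cells was 0.308 in 4T1P (0.176 to 0.50) and 6.44 in 4T1M (5.25 to 7.81), the latter including the cell named above. Of the 62 macrophages with Timd4 in 4T1M, 9 (14.5%) held 2 or more of the other 5, against 3.28% of the macrophages without it, and in 4T1P 9 of 38 (23.7%) against 13.9%. For Timd4 the higher share rests on 9 cells in each library and has no interval, so it is given as a description only. Macrophages with Timd4 were deep, with medians of 17773 UMIs in 4T1P and 12356 in 4T1M, against 9727 and 9214 over all macrophages. The part of depth in these shares was not tested. At 2000 UMIs, Timd4 was in 5.77% of 4T1P cells with 2 or more of the other 5 (3 UMIs) and in 1.20% of the rest (9 UMIs). In 4T1M these shares were 6.67% (1 UMI) and 2.28% (20 UMIs). Of the 121 Timd4 UMIs in 4T1M, 109 lay in cells with fewer than 2 of the other 5.

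Other genes were ranked by how much higher they were in resident-marker cells, in the library where the ratio was smaller, among 248 genes with at least 20 UMIs there. Among the 10 highest were Wfdc17, Ltc4s, Pltp, Glul, F13a1, Selenop, Fcgrt, Gda and Ccl6. Wfdc17, a secreted protease inhibitor of macrophages, was at 8000 CPM inside and 625 CPM outside in 4T1P and at 8688 and 634 CPM in 4T1M. Selenop, which carries selenium, was at 2481 and 487 CPM in 4T1P and 3125 and 331 CPM in 4T1M, and F13a1, a transglutaminase subunit of coagulation factor XIII, at 2192 and 320 CPM and at 875 and 122 CPM. Of 5859 genes with enough UMIs, here at least 20 over all thinned macrophages of each library, 6.59% were at least 2-fold higher inside in both libraries. Of a list of 22 further resident macrophage genes, 14 had enough UMIs by this limit and 12 of them were at least 2-fold higher inside in both. Counts inside can be small under this limit: Igf1, among these 12, had 5 UMIs inside in 4T1P and 2 in 4T1M. Of 5 monocyte genes with enough UMIs, 2 (Plac8 and F10, named for their values) were at least 2-fold lower inside in both, as were 3.5% of all genes. Ccr2, the monocyte gene with the most UMIs in macrophages, was not among them. It was at 606 CPM inside and 502 CPM outside in 4T1P, and at 312 and 392 CPM in 4T1M. Vcan was at 106 and 82.6 CPM in 4T1P, and at 0 and 27.6 CPM in 4T1M. Genes of lymphatic and other vessels, which share Lyve1 and Stab1, were low in all macrophages, the 10 listed summing to 38.5 CPM inside (4 UMIs) and 25.0 CPM outside in 4T1P and to 0 and 45.7 CPM in 4T1M, with Prox1 and Flt4 at 0 inside and outside. Neutrophil genes (10 in the list) were at 173 CPM inside and 279 CPM outside in 4T1P and at 562 and 418 CPM in 4T1M. S100a8 and S100a9 together were higher inside in both libraries, at 846 and 544 CPM in 4T1P and at 2281 and 1098 CPM in 4T1M.

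By Pearson correlation with Mrc1 over macrophages at 2000 UMIs, the genes most like it that are no member were Selenop (r = 0.44 in 4T1P and 0.36 in 4T1M, over 633 and 760 cells), Fcgrt (0.29 and 0.27), C1qc (0.27 and 0.31), Lgmn (0.40 and 0.26) and C1qa (0.25 and 0.33), of 3187 genes ranked by the smaller r. All points share 1 library each and the counts are sparse. Among the members Cd163 (0.37 and 0.26), Folr2 (0.21 and 0.22) and Cbr2 (0.37 and 0.21) came closest by the same measure, and Msr1 stood at 0.04 and 0.02.

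Lists of related genes differed from one another. Of the 22 other resident macrophage genes, 20 had at least 10 UMIs in macrophages, 11 were at least 2-fold lower in 4T1M and 0 at least 2-fold higher, with a median log2 ratio of -1.12 beside -0.03 over all genes. Of the genes with the most UMIs, the platelet factor Pf4 was at 571 CPM in 4T1P and 236 CPM in 4T1M, the chemokine Ccl24 at 529 and 198 CPM, F13a1 at 433 and 134 CPM and Selenop at 579 and 347 CPM. Pf4 and Ccl24 were not at least 2-fold higher in resident-marker cells in both libraries. Inside and outside those cells, Pf4 was at 865 and 622 CPM in 4T1P and at 344 and 260 CPM in 4T1M. Ccl24 was at 288 and 552 CPM in 4T1P and at 375 and 206 CPM in 4T1M. Of 11 further scavenger and clearance receptors with enough UMIs, 0 were 2-fold lower or higher and the median was 0.08. Among them Cxcl16, a receptor for oxidized lipids, was at 450 and 561 CPM, Axl, which binds dying cells through Gas6, at 197 and 229 CPM, and Lrp1 at 215 and 180 CPM. Of 12 genes of alternative activation, 0 were 2-fold lower and 2 were higher, with a median of 0.19. The 2, Ccl17 (0.228 and 6.53 CPM) and Cd209a (0.342 and 1.5 CPM), are named for their values and rest on 2 and 3 UMIs in 4T1P. Arg1, the arginase of this list, was at 2402 and 1945 CPM. The 14 general macrophage genes had a median of -0.03, with 0 past 2-fold in either direction. Of 8 monocyte genes, 3 were at least 2-fold higher in 4T1M macrophages and 1 lower, with a median of 0.04. The 3, Ly6c2 (3.76 and 28.0 CPM), Ly6c1 (35 and 206 UMIs) and Plac8 (100.4 and 326 CPM), and the 1, Vcan (77.1 and 21.7 CPM), are named for their values. The list summed to 956 CPM in 4T1P and 1055 CPM in 4T1M, and its part in the lower resident genes was not tested.

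The Mrc1 difference was also read within cells that did or did not carry each of 11 genes of macrophage state. Mrc1 was lower in 4T1M in cells without the gene for all 11, with log2 ratios from -2.03 to -0.91. In cells with the gene it was lower for 10, from -1.20 to -0.41 (for the exception, Ly6c2, only 4 cells of 4T1P carried it, with 0 Mrc1 UMIs). The interval in cells with the gene lay wholly below 0 for 9. For Vcam1 it held 0 (-0.41, -0.90 to 0.07), and 52.5% of such cells in 4T1P and 54.8% in 4T1M had Mrc1. The widest contrast was by H2-Ab1, an MHC class II chain that was itself at 1985 CPM in 4T1P and 2902 CPM in 4T1M. Macrophages without H2-Ab1 had 1.53 Mrc1 UMIs per 2000 in 4T1P (216 cells) and 0.374 in 4T1M (147 cells), a log2 ratio of -2.03 (-2.47 to -1.62). With H2-Ab1 the means were 1.12 and 0.721, a log2 ratio of -0.64 (-0.83 to -0.44). H2-Ab1 was lower in resident-marker cells than in other macrophages, at 577 and 1978 CPM in 4T1P and 1688 and 2853 CPM in 4T1M. The division by H2-Ab1 thus overlapped with that by resident markers. Across 5 ranges of depth per cell, Mrc1 was lower in 4T1M in each, with log2 ratios from -1.47 to -0.82. In these summed counts, fewer cells with a gene and less of its RNA per cell cannot be told apart without the division by cells given above.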

How the data were processed

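GR1+ cells of 4T1P and 4T1M tumors were profiled in 1 pooled 10x Genomics library each. Per barcode and gene, the deposited values are the authors' unnormalized UMI counts from Cell Ranger (4.0.0 in the submitters' processing notes; the methods name another version) against GRCm38 (mm10). Such reads count 1 end of a transcript, so splice forms were not separated. Levels are deposited counts summed per class, as CPM; shares were taken after random thinning to 2000 UMIs, and lists used 0.5 added UMIs. No p-value was computed, since there are no replicates. The cell filter and class limits, the members and the gene lists were chosen with earlier results of these data known.

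The 10 members were named, with at most 6 genes of a list by UMIs in macrophages, the 10 genes most enriched in resident-marker cells and the 5 most like Mrc1; some genes that this rule names are not reported here. Doublets were kept; Scrublet's automatic threshold called only 1 and 0 barcodes and was not used, and the highest scores at 0.8% per 1000 barcodes (69 and 200 barcodes) were removed as an alternative. Other alternatives changed the scaling (edgeR 4.0.16 and DESeq2 1.42.0, scaling only), class limits, filters, thinning and marker rule. Scripts, tested on simulated data, ran in Python 3.11.15 with SciPy 1.17.1 and Scanpy 1.11.5. Timd4, the member with the fewest UMIs in 4T1P macrophages, rests on 66 there.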

Additional observations from a re-analysis of the deposited data

Results flagged for a closer look

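Members were also found in barcodes that the filters left out. In 4T1P they summed to 1146 CPM in 136 barcodes above 5000 detected genes and to 1056 CPM in 420 barcodes above 10% mitochondrial UMIs, with Mrc1 at 340 and 366 CPM. In 4T1M the sums were 701 CPM in 49 barcodes and 461 CPM in 472 barcodes, with Mrc1 at 180 and 145 CPM. These barcodes hold all cell classes together, and of them only the macrophages with 10% to 20% mitochondrial UMIs were used above, and Mrc1 was lower in 4T1M in both kinds. The following differences were noted because the ratio between the libraries had opposite signs in 2 places, and none of them was tested. The log2 ratio inside the resident-marker cells exceeded that outside by 1.93 for Cd163, by 3.04 for Folr2 and by 0.34 for Stab1. For Msr1, the log2 ratio in macrophages minus that in neutrophils was -0.57, with 60.1 and 68.1 CPM in the neutrophils of 4T1P and 4T1M. The interval of its ratio in neutrophils also held 0 (0.18, -0.08 to 0.45).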

How the results depend on the processing

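With 1 library per condition, no alternative left out a replicate. The direction of each member's ratio was kept in all 150 values (15 alternatives for 10 members), and 8 members were lower in each alternative. Of the alternatives, 2 were chosen after seeing the data: without the cell holding the most UMIs of the gene, and within macrophages with H2-Ab1. Not all of these values could have changed direction. All 10 members had at least 10 UMIs, so the alternative limited to such members repeated the reported ratios. The edgeR and DESeq2 factors each shift every member's log2 ratio by the same amount, which was smaller than any of the ratios. With a mitochondrial limit of 5%, the count of members at least 2-fold lower was 2 in place of 6. The count at least 2-fold higher was 2 with no upper limit on genes or with each cell weighted equally, and 0 without the highest cell of each library. The share of resident-marker cells was 22.3% in 4T1P and 8.16% in 4T1M for at least 1 marker, 4.58% and 1.18% for at least 3, 15.9% and 5.43% without thinning, and 61.6% and 40.1% (ratio 1.54) by the other resident genes. At 1000 UMIs it was 4.66% in 4T1P. At the 5% mitochondrial limit, with cells thinned anew, it was 3.70% in 4T1P against 3.13% in 4T1M, a ratio of 1.18 in place of 3.9. Another thinning seed, added later, gave 9.79% and 2.63%, and kept 7 of the 10 genes ranked for resident-marker cells. The part of the Mrc1 difference from the share of these cells was 19.2% for at least 3 markers and 16.7% at 1000 UMIs, in place of 33.0%. The same part under the other marker rules is not reported here. Beyond the change in cells that each setting makes, the cause was not tested. Depth limits Vsig4, Timd4 and Retnla, each found in under 3% of macrophages of either library at 2000 UMIs.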
